A study of Mus musculus with 26 samples.

Results

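The genes of cholesterol synthesis and of its control by the transcription factor SREBP2 were followed in 26 RNA sequencing libraries of mouse liver. They are 29 genes, chosen by symbol, and all 29 were found among the 47643 gene rows of the count table. By role they are 8 enzymes of the mevalonate stage, 3 enzymes that lead from farnesyl units to lanosterol, 9 enzymes from lanosterol to cholesterol, 4 genes for SREBP2 and the proteins that hold it, and 5 genes for sterol transport, storage and receptor turnover.

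Cholesterol is built from acetyl-CoA through mevalonate, isoprenoid units, squalene and lanosterol. SREBP2 is a membrane protein of the endoplasmic reticulum that Scap escorts to the Golgi when sterols are scarce. It is cleaved there, and its released part enters the nucleus and activates the genes of the pathway. When sterols are plentiful, Insig1 and Insig2 hold the complex back. In hepatocytes cholesterol is also the raw material of bile acids, whose synthesis is restrained by Fxr, a nuclear receptor that senses them and is encoded by Nr1h4, through the repressor Shp, encoded by Nr0b2.

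The libraries form 5 experiments, each with its own control. C57BL/6J wild-type mice of 8 weeks, fed ad libitum, received TCPOBOP, an agonist of the nuclear receptor CAR, or corn oil (2 libraries each); the titles place the TCPOBOP livers at 36 h after injection, while another label field of the same samples gives 6 h. Fxr-/- Shp-/- mice were compared with wild-type mice, both C57BL/6J, of 12 weeks and fed ad libitum (3 libraries each). C3H/HeN mice of 8 to 10 weeks, fed ad libitum and with no genotype given, were sampled at 48 h after partial hepatectomy (PHx) or as sham at 0 h (3 libraries each), so surgery and time cannot be told apart. Hepatocytes came from C57BL/6J wild-type mice of 16 weeks on chow or on a 60% high fat diet after a 10 h fast (2 libraries each). Mice with floxed Fxr and Shp alleles (fl/fl Fxr fl/fl Shp, C57BL/6J, 10 to 12 weeks) ate chow or a cholic acid diet, with 3 libraries per diet, and were sampled after 8 to 10 h without food. Both floxed groups carry the same alleles and no Cre is named in the labels. The samples other than the hepatocytes are whole liver. In such bulk samples, fewer cells of a type and less RNA per cell cannot be told apart. Whether libraries of a group came from separate animals is not given in the labels, so p-values measure the spread between these libraries, which may be technical.

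Between 13949059 and 70367874 reads were assigned to genes in a library. The 29 genes took 0.149% to 0.700% of them, and their lowest count in any library was 7, above a floor set at 3 counts. Some levels still rest on few reads. Idi1 had 10, 14 and 16 reads in the wild-type libraries. Fdps had 18, 18 and 16 there, and 10 and 7 in cholic acid 1 and 2. The 8 defining hepatocyte markers together reached at least 48800 CPM (counts scaled to a common library total) in the TCPOBOP experiment and more in the others. In the knockout experiment Nr0b2 had 280, 446 and 226 reads in wild type and 13, 25 and 39 in Fxr-/- Shp-/- livers, and Nr1h4 had 2846, 2546 and 1941 against 1421, 1198 and 1356. The library labelled corn oil 1 held 3786 CPM of Cyp2b10, the textbook CAR target, against 10.3 CPM in corn oil 2 and 3079 to 3465 CPM after TCPOBOP, which goes against its label. Levels below are CPM scaled by the TMM method within each experiment, with the SD over libraries. Tests are edgeR's quasi-likelihood F test with Benjamini-Hochberg adjustment over all genes, and a gene is said to have risen or fallen where its adjusted p was under 0.05.

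SREBP2 acts at sterol regulatory elements that often lie beside sites of the factor NF-Y, so the start regions were read for the letters of both. RefSeq start regions (GRCm38.p6, 250 bases before to 50 bases after each start) were available for 23 of the 29 genes. Fdps, Fdft1, Sqle, Stard4, Soat2 and Npc1 had none in the table used. The NF-Y letters CCAAT, on either strand, stood in at least one window of 21 of the 23 genes (91.3%), against 41.1% of the 27025 genes in the table. Acat2 and Scap were without them. The sterol element letters TCACNCCAC were in 1 gene, Hmgcs1, against 1.44% of all genes, and the shorter CACNCCAC, which every TCACNCCAC also holds, in 3 genes (Acat2, Hmgcs1 and Insig1), against 7.12%. A match describes letters, not a bound site. The 250 bases before the start are shown for 4 enzyme genes that rose in the knockout livers, chosen after the matches were seen. Each stretch lies outside the gene's own annotated exons, and overlap with exons of other genes is not given. They are printed 5′ to 3′ on the gene's strand, with CCAAT (or ATTGG, the same letters on the other strand) and the sterol element in capitals. Hmgcs1, at chr13:119690101-119690350 on the plus strand, holds TCACCCCAC 137 bases before the start and 3 ATTGG matches, the nearest 45 bases before it. Mvk, at chr5:114444019-114444268 on the plus strand, holds 5 NF-Y matches. Mvd lies at chr8:122443423-122443672 on the minus strand and Nsdhl at chrX:72918271-72918520 on the plus strand, each with 2 matches.
Hmgcs1: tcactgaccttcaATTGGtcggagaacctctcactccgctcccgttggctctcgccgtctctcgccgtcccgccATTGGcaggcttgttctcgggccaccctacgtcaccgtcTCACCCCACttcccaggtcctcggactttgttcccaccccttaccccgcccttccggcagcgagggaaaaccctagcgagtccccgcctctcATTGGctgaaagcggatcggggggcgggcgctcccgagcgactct
Mvk: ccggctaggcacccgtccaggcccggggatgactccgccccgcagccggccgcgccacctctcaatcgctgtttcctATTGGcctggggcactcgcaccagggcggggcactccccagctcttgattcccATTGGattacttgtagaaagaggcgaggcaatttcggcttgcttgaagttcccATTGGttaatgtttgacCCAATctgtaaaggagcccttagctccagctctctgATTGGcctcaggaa
Mvd: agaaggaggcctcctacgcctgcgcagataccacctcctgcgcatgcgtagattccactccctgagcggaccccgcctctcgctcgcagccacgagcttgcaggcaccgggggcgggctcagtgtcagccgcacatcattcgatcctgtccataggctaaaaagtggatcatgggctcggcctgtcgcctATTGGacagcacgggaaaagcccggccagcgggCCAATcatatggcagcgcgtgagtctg
Nsdhl: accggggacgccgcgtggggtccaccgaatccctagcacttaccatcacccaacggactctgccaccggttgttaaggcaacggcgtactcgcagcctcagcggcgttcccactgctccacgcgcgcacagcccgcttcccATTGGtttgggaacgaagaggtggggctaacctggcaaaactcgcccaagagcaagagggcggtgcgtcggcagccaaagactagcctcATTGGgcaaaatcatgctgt

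In Fxr-/- Shp-/- livers the pathway stood far above wild type. Of the 29 genes 21 rose and 0 fell, where 40.4% of all 13473 genes tested were called, with 21% risen and 19.4% fallen. At an unadjusted p under 0.05 there were 24 of the 29, and 49.7% of all genes. The median log2 fold change was 1.61 over the 29 genes and -0.01 over all genes. For 23 genes every knockout library lay above every wild-type library, as for 26.5% of all genes. Knockout 3 was the lowest of its group for 19 of the 29 genes. In knockout 1, 2 and 3 the clock gene Dbp had 5.8, 9.4 and 24.1 CPM, and the clock gene Arntl 30.8, 25.6 and 26.9 CPM. The part of sampling time was not tested here either.

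The largest change was that of Sqle, squalene epoxidase, which oxidises squalene at a rate-limiting step. Its level was 2.85, 2.59 and 3.14 CPM in the wild-type libraries and 90.9, 105 and 57.4 CPM in the knockout libraries, a log2 fold change of 4.88 (SE 0.25, adjusted p = 3.14e-06, edgeR). The 2 groups were far apart, and knockout 3 was the lowest of its group. Idi1, the isomerase of the 5-carbon isoprenoid units, had 0.537, 0.886 and 0.967 CPM in wild type and 18.2, 19.5 and 10.0 CPM in the knockout (log2 4.32, SE 0.34, adjusted p = 3.26e-05). Fdps, which joins these units to farnesyl diphosphate, had 0.967, 1.14 and 0.967 CPM against 15.3, 18.7 and 14.8 CPM (log2 3.99, SE 0.18, adjusted p = 1.70e-06). Both genes lay near 1 CPM in every wild-type library and at 10.0 CPM or above in every knockout library.

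The sterol ring enzymes followed. Msmo1, which removes the C4 methyl groups, had 23.8, 22.7 and 27.0 CPM in wild type and 310, 351 and 164 CPM in the knockout (log2 3.49, SE 0.27, adjusted p = 3.01e-05). Cyp51, the lanosterol demethylase, had 16.9, 17.7 and 18.6 CPM against 206, 229 and 155 CPM (log2 3.47, SE 0.15, adjusted p = 1.68e-06). Nsdhl, which acts with Msmo1 in C4 demethylation, had 7.68, 8.10 and 7.61 CPM against 55.8, 63.9 and 47.2 CPM (log2 2.83, SE 0.13, adjusted p = 1.88e-06). In all 3 genes knockout 3 was the lowest knockout library and still far above wild type. Mvd, which decarboxylates diphosphomevalonate, had 2.36, 1.71 and 1.39 CPM against 19.1, 28.4 and 11.3 CPM (log2 3.41, SE 0.37, adjusted p = 0.000183). Insig1, itself a known SREBP2 target as well as its retention factor, had 40.5, 34.6 and 46.4 CPM against 259, 314 and 260 CPM (log2 2.78, SE 0.14, adjusted p = 2.60e-06).

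Of the other mevalonate enzymes, Hmgcs1, the synthase that makes HMG-CoA, had 74.2, 83.3 and 78.0 CPM in wild type against 537, 638 and 244 CPM (log2 2.59). Mvk and Pmvk, the kinases that phosphorylate mevalonate, rose by 2.19 and 1.61, and Acat2, the cytosolic thiolase, rose by 1.20 on the log2 scale. Among the later enzymes, Dhcr7, the last reductase, rose by 2.32, and Lss, which closes the ring of lanosterol, rose by 2.19. Fdft1, squalene synthase, rose by 1.51, Hsd17b7, a keto reductase of C4 demethylation, by 0.94, and Sc5d, the C5 desaturase, by 0.89. Outside the enzymes, Tmem97, a sterol-regulated membrane protein, rose by 1.90, and Stard4, a cytosolic sterol carrier, by 1.66. The rises of Srebf2 (log2 0.56, adjusted p = 0.0268), which encodes SREBP2, and of Lbr (log2 0.53, adjusted p = 0.0163), a C14 sterol reductase that also anchors chromatin, were the smallest of the 21. Srebf2 did not pass the threshold in 5 of the 6 fits that leave out 1 library, and Lbr in 3 of 6, while the other 19 passed in all 6.

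Of the 8 genes that did not pass the test, 3 were enzymes, 2 were partners of SREBP2 and 3 belonged to transport, storage and receptor turnover. The enzymes were Ggps1 (log2 0.41), which makes the geranylgeranyl unit of a side branch, Tm7sf2 (0.15), the other C14 sterol reductase, and Ebp (0.26), the sterol isomerase. The others were Scap (0.17), Insig2 (0.51), Mylip (0.23), the ubiquitin ligase that degrades lipoprotein receptors, Soat2 (-0.19), which esterifies cholesterol, and Npc1 (-0.18), which exports it from lysosomes. For Ebp and Insig2 every knockout library was above every wild-type library, although the adjusted p was 0.0584 for Ebp and 0.0565 for Insig2.

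**Figure D1:**
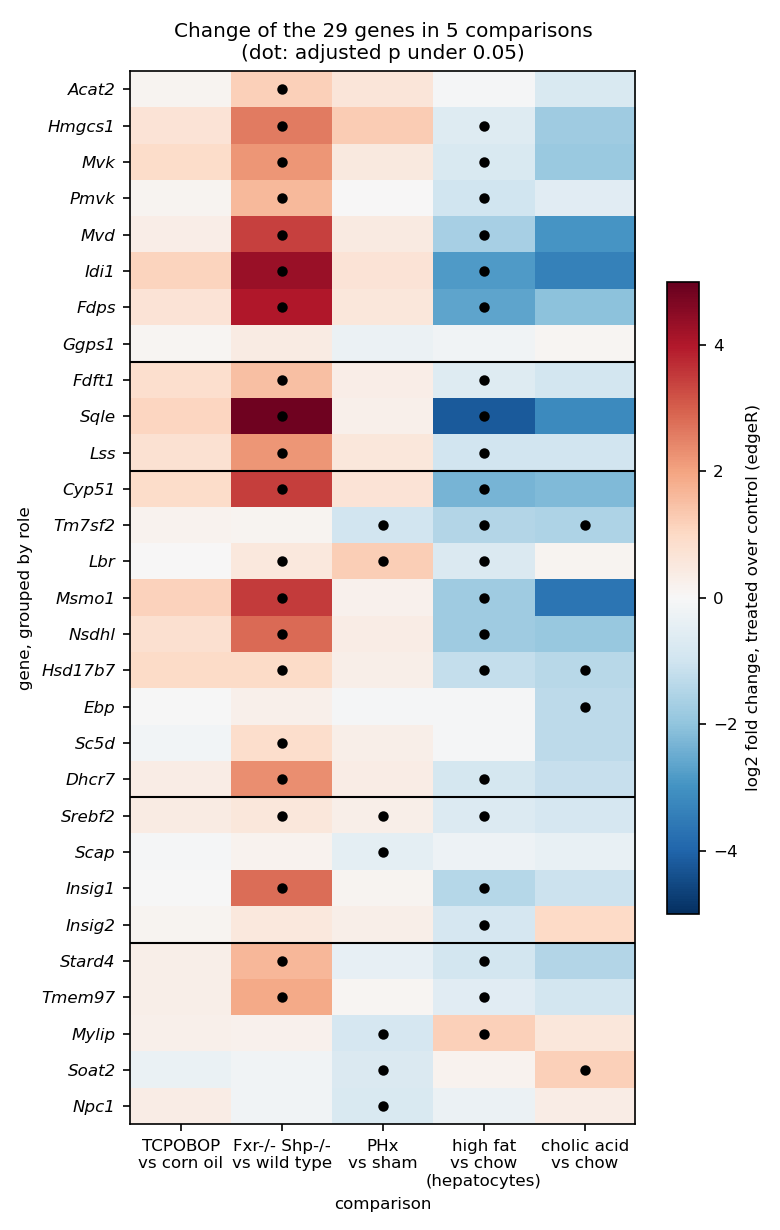
Log2 fold change (colour) of each of the 29 genes (rows, grouped by role with lines between the roles) in the 5 comparisons (columns), with a dot where the edgeR adjusted p was under 0.05. The knockout column holds 21 dots on rising genes, the high fat column 21 on falling genes and 1 on a rising gene, and the TCPOBOP column none.

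Other measures were compared in the same libraries. Reads that aligned to more than 1 place made up 43.2% to 44.1% of the reads in the wild-type libraries, 25.5% to 26.9% in the knockout libraries and 16.6% to 25.1% in all other libraries. Of the SREBP1 fatty acid synthesis genes 12 of 12 tested rose, led by Scd1 (log2 3.74), Fasn (2.85) and Elovl6 (2.32). Of the bile duct markers 4 of 5 rose (summed level 27.3 to 38.0 CPM in wild type and 57.4 to 135 CPM in the knockout), and 4 of 6 stellate and fibroblast markers rose (184 to 306 against 401 to 462 CPM). Of 6 Kupffer cell markers 2 rose, Cd68 (1.54) and Vsig4 (1.00), and Timd4 was lower without passing the test (-0.61). Their summed level was 110 to 212 CPM in wild type and 165 to 347 CPM in the knockout, so the groups overlapped. Of 5 endothelial markers 2 rose, Lyve1 (1.00) and Stab2 (0.76), with a summed level of 61.0 to 113 CPM against 112 to 164 CPM. Of the 8 hepatocyte markers 4 fell, and none of these lists was at 0 in either group. Their part in the rise of the cholesterol genes was not tested. Among the genes of acetyl-CoA supply, Aacs rose by 2.18 and Acss2 by 1.28. Of 17 genes of the sterol sensing machinery 5 rose, with Gramd1b at 1.56 and Rnf145 at 1.17, and 3 fell, with Gramd1c at -1.03. Of the sterol transport, storage and LXR list 6 of 17 tested rose, led by Osbpl3 (3.26), Abcg1 (1.49) and Soat1 (1.12), and 2 fell. Of 10 proliferation genes 8 rose. In the isoprenoid branch 2 of 13 genes rose and 3 fell, among the clock genes 2 of 14 rose and 2 fell, and among the fasting genes 2 of 10 rose and 3 fell. The shares called in these last 3 lists are to be read against the 40.4% called among all genes. So are those of the Kupffer cell, endothelial, sterol sensing and sterol transport lists.

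Set beside the other control groups, the wild-type libraries had low levels of most of the 29 genes. With all 26 libraries scaled together, wild type had the lowest mean of the 5 control groups for 24 of the 29 genes, while it was lowest for 18.9% of all genes tested. For 22 of the 29, all 3 wild-type libraries lay below all 10 other control libraries, as for 6.29% of all genes. The ratio of the highest to the lowest control group mean was 116 for Idi1, 52.5 for Sqle, 17.8 for Mvd and 16.1 for Insig1, and 1.27 for Ggps1. The knockout mean lay within the range of the other control libraries for 26 of the 29 genes, as for 63.5% of all genes. That range can be wide, as Idi1 had 8.61 CPM in floxed chow 2 and 148 CPM in floxed chow 3. The control groups differ in age, fasting, strain, tissue and experiment, which cannot be told apart here, so these levels across experiments are a description with no test.

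**Figure D2:**
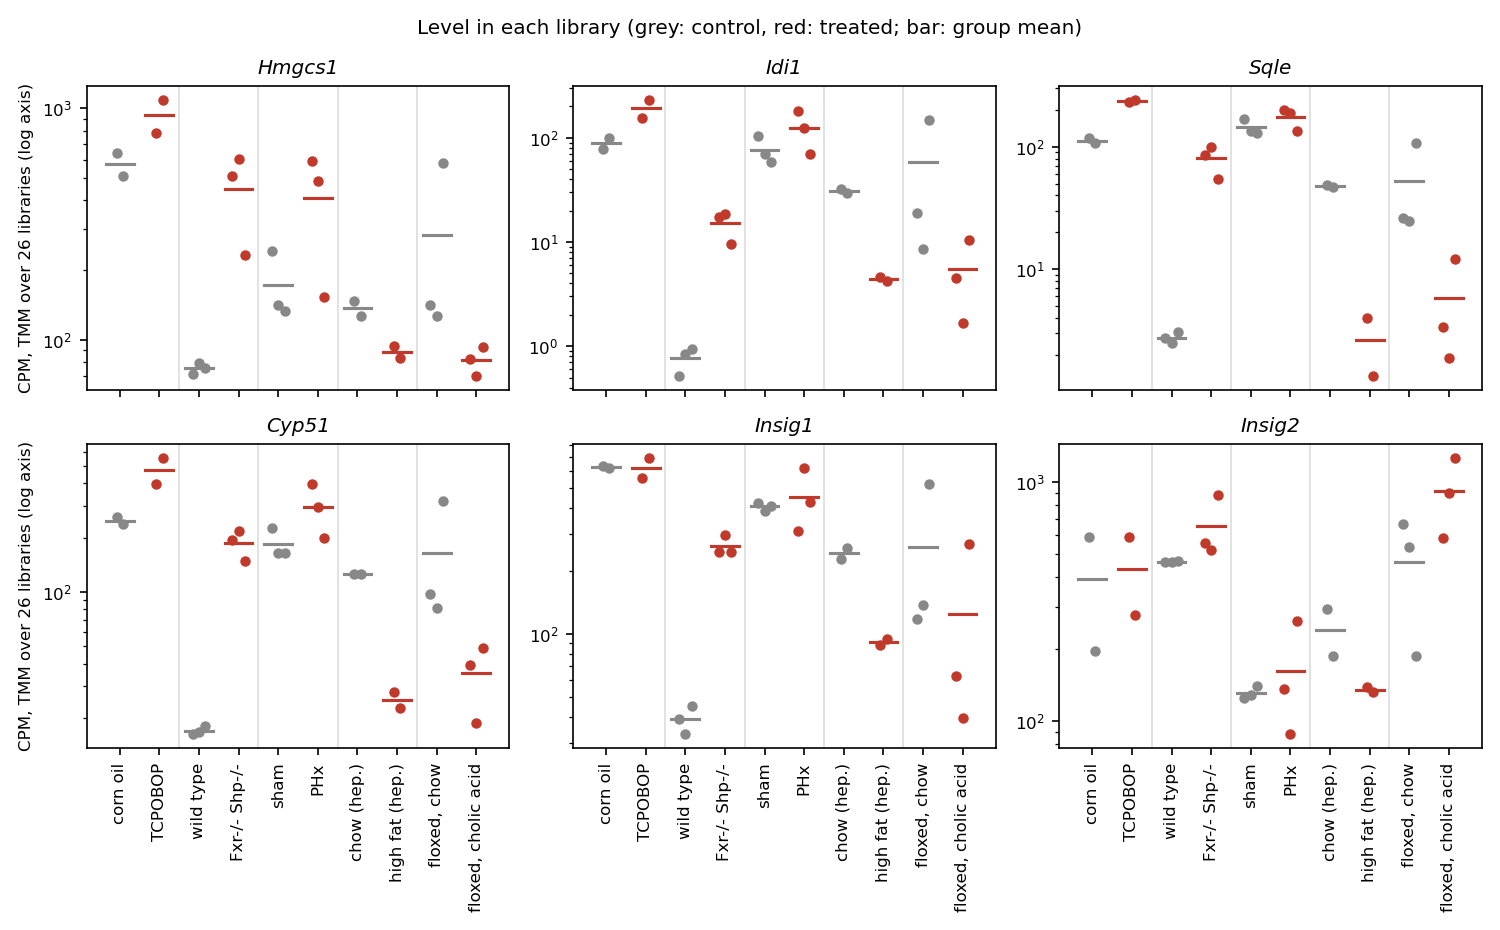
Level of 6 genes in each of the 26 libraries (points; CPM scaled over all libraries, log axis) by group, with control groups in grey, treated groups in red and a bar at the group mean. Hmgcs1, Idi1, Sqle, Cyp51 and Insig1 are lowest among the controls in wild type, the point of floxed chow 3 lies well above those of the other floxed chow libraries, and Insig2 shows the opposite order in the floxed chow group.

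Per kilobase of exon, a rough scale for setting genes side by side, the order within the pathway was uneven. The length includes stretches near-identical to other genes, whose reads may have been set aside. The longest was 1066 bases in Fdps, 903 in Ggps1 and 684 in Idi1, against 462 in Hmgcs1 and 189 in Insig1. The ranks of these genes are therefore uncertain. In corn oil livers, scaled over all libraries, Insig1 stood highest with 204 ± 2.60 CPM per kb (SD, n = 2), ahead of Sc5d with 150 ± 15.8 and Hmgcs1 with 126 ± 20.5, which do not differ beyond their spread. Ggps1 stood lowest with 1.20 ± 0.0235 CPM per kb. In wild type the order was led by Insig2 with 134 ± 1.14 CPM per kb (n = 3) and Ebp with 66.1 ± 6.86, and Insig1 stood at 12.6 ± 1.98. Idi1 (0.219 ± 0.0634) and Fdps (0.234 ± 0.0204) were the lowest there and lay within each other's spread.

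Hepatocytes of mice on the high fat diet showed the opposite change over much of the pathway. Of the 29 genes 21 fell and 1 rose, where 24% of the 13892 genes tested were called, with 11.1% fallen and 12.9% risen. An unadjusted p under 0.05 was reached by 22 of the 29, and by 40% of all genes. The count of falls was 9 in a single fit of all 26 libraries, where 3.67% of all genes fell, and 11 with a log2 fold change of at least 1 in size, as for 2.48% of all genes. The median log2 fold change was -0.86 over the 29 genes and 0.01 over all genes. For 24 genes both high fat libraries lay below both chow libraries and for 2 above, as for 33% and 35.1% of all genes.

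Sqle had 45.0 and 42.6 CPM on chow and 3.54 and 1.20 CPM on the high fat diet, a fall of 4.20 on the log2 scale (SE 0.44, adjusted p = 0.00482, edgeR). The high fat libraries differed from each other but were both far below chow. Idi1 had 29.9 and 26.7 CPM against 4.11 and 3.81 CPM, and fell by 2.83 (SE 0.12, adjusted p = 0.000508). Fdps had 2.86 and 2.49 CPM against 0.403 and 0.442 CPM, and fell by 2.66 (SE 0.23, adjusted p = 0.00322). These were also the leading genes of the knockout comparison, in the opposite direction. Cyp51 had 116 and 115 CPM against 25.1 and 20.4 CPM, and fell by 2.34 (SE 0.12, adjusted p = 0.000812). Nsdhl had 40.3 and 42.1 CPM against 13.3 and 10.4 CPM, and fell by 1.80 (SE 0.13, adjusted p = 0.00199). Msmo1 had 123 and 111 CPM against 36.6 and 31.9 CPM, and fell by 1.77 (SE 0.11, adjusted p = 0.00109). In each of these sterol ring enzymes the libraries of a diet lay close together. Mvd had 5.84 and 6.94 CPM against 2.00 and 2.04 CPM, and fell by 1.66 (SE 0.16, adjusted p = 0.00424). Tm7sf2, which had not passed the test in the knockout, had 94.8 and 102 CPM against 34.7 and 37.5 CPM, and fell by 1.45 (SE 0.09, adjusted p = 0.00109).

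The other 13 falls ranged from 0.57 for Tmem97 to 1.44 for Insig1 on the log2 scale. They were those of Hmgcs1 (0.65), Mvk (0.75) and Pmvk (1.01) in the mevalonate stage, Fdft1 (0.66) and Lss (0.94) before lanosterol, and Lbr (0.71), Hsd17b7 (1.18) and Dhcr7 (0.88) after it. Srebf2 fell by 0.69, Insig2 by 0.86 and Stard4 by 0.93. The gene that rose was Mylip, with 2.32 and 2.26 CPM on chow and 5.10 and 5.41 CPM on the high fat diet (log2 1.20, SE 0.15, adjusted p = 0.00725). Mylip is a target of the sterol-activated receptor LXR and lowers lipoprotein receptors. The 7 genes that did not pass were Acat2 (-0.07), Ggps1 (-0.17), Ebp (-0.07), Sc5d (-0.08), Scap (-0.26), Npc1 (-0.28) and Soat2 (0.16). In fits that leave out 1 library, Mvk and Lbr did not pass in 3 of 4 and Insig2 in 2 of 4, while 19 of the 22 passed in all 4. Each of these fits leaves 1 library in a diet group, which is assumed to vary as the other group does.

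Markers of other liver cells moved with the diet. The counts called in these lists are to be read against the 12.9% of all genes that rose and the 11.1% that fell. All 5 endothelial markers rose, with a summed level of 34.6 to 36.7 CPM on chow and 85.3 to 87.7 CPM on the high fat diet. Of 6 stellate and fibroblast markers 5 rose (8.99 to 15.2 against 36.1 to 38.1 CPM, led by Col1a1), and of 6 Kupffer cell markers 4 rose (24.7 to 26.5 against 43.3 to 46.8 CPM). The hepatocyte markers summed to 88940 to 90410 CPM on chow and 87670 to 89040 CPM on the high fat diet, with 2 of 8 called lower (Hnf4a and Apoa1), and no list was at 0. Their part in the fall of the cholesterol genes was not tested. Of the SREBP1 fatty acid genes 4 of 12 tested fell, led by Fasn (-1.27) and Acacb (-1.25), and none rose. Of the sterol transport, storage and LXR list 3 of 17 tested rose (Osbpl3 4.04, Cyp46a1 2.29 and Abcg1 2.02) and 1 fell, a share called close to the 24% of all genes. Of the sterol sensing machinery 3 of 17 rose, among them Gramd1b (2.31) and Srebf1 (0.72), and 5 fell.

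The cholic acid diet lowered few of these genes past the threshold, and the chow libraries differed widely among themselves. Of the 29 genes 3 fell and 1 rose, where 4.77% of the 12577 genes tested were called, with 2.5% fallen and 2.27% risen. The median log2 fold change was -1.16 over the 29 genes and 0.01 over all genes, and 23 of the 29 values were negative. For 14 genes all cholic acid libraries lay below all chow libraries and for 2 above, as for 15.7% and 15.5% of all genes. At an unadjusted p under 0.05 there were 20 of the 29 genes, and 23.1% of all genes.

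Ebp had 244, 268 and 315 CPM on chow and 128, 94.9 and 110 CPM on cholic acid, and fell by 1.31 on the log2 scale (SE 0.18, adjusted p = 0.00982, edgeR). Tm7sf2 had 118, 146 and 215 CPM against 64.6, 43.7 and 56.9 CPM, and fell by 1.53 (SE 0.26, adjusted p = 0.0160). Hsd17b7 had 76.3, 61.4 and 138 CPM against 34.0, 30.3 and 40.9 CPM, and fell by 1.39 (SE 0.30, adjusted p = 0.0389). In each of these late enzymes the groups did not overlap. Soat2, which esterifies cholesterol for storage and secretion, had 16.9, 22.8 and 32.1 CPM on chow and 54.8, 59.3 and 48.4 CPM on cholic acid, and rose by 1.18 (SE 0.24, adjusted p = 0.0302). Leaving out 1 library at a time kept Ebp past the threshold in all 6 fits, Tm7sf2 in 3, Hsd17b7 in 2 and Soat2 in 1.

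Floxed chow 3 stood apart from the other chow libraries, and was the highest of the 3 for 26 of the 29 genes. Msmo1 had 70.3, 59.7 and 531 CPM on chow and 13.4, 13.4 and 25.8 CPM on cholic acid (log2 -3.65, SE 0.86, adjusted p = 0.0520). Idi1 had 18.4, 8.5 and 145 CPM on chow and 4.46, 1.64 and 10.2 CPM on cholic acid (log2 -3.39, SE 1.08, adjusted p = 0.111). Sqle had 25.5, 24.4 and 105 CPM against 3.27, 1.85 and 11.9 CPM (log2 -3.17, SE 0.81, adjusted p = 0.0633). The third cholic acid library was the highest of its group for 18 of the 29 genes. Insig2 showed the reverse order, with 653, 530 and 184 CPM on chow. Clock genes differed in the same library: Dbp, an output gene of the clock, had 4.28, 10.4 and 99.6 CPM in chow 1, 2 and 3, and Arntl, a core clock activator, had 16.1, 14.1 and 1.92 CPM. Cyp7a1, the rate-limiting enzyme of bile acid synthesis, had 109, 157 and 711 CPM. In cholic acid 1, 2 and 3, Dbp had 2.43, 19.7 and 1.08 CPM and Arntl had 28.1, 10.45 and 25.8 CPM. Chow 3 and cholic acid 3 thus differed widely in both clock genes. The part of sampling time or feeding in these values was not tested.

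Same-numbered chow and cholic acid libraries deviated weakly together, with a correlation over genes of 0.133, 0.155 and 0.103 for the 3 numbers. The floxed experiment was not alone in this, as the correlation was 0.104 with TCPOBOP. Once the replicate number entered the fit as a block, 13 genes fell and 0 rose, where 2% of all genes fell and 1.81% rose. Sqle then fell by 3.25 (SE 0.22, adjusted p = 0.00370), Msmo1 by 2.96 (adjusted p = 0.0289), Idi1 by 2.80 (0.0213) and Mvd by 2.57 (0.0449). The other 9 were Fdps, Cyp51, Tm7sf2, Nsdhl, Hsd17b7, Ebp, Dhcr7, Insig1 and Stard4, and Soat2 had an adjusted p of 0.0513. Without floxed chow 3 the count was 7 fallen and 1 risen, where 4.83% and 5.55% of all genes fell and rose. The 7 were Hmgcs1, Mvd, Tm7sf2, Msmo1, Hsd17b7, Ebp and Sc5d, with Msmo1 at -1.89 (adjusted p = 0.00900), and the one that rose was Soat2 (1.45, adjusted p = 0.00468). Ebp, Tm7sf2, Hsd17b7, Msmo1 and Mvd fell in both of these fits. Without that library the log2 fold change moved from -3.39 to -1.30 for Idi1, from -1.06 to -0.04 for Insig1, from -0.93 to 0.38 for Fdft1 and from -0.56 to 0.15 for Pmvk, none of them past the threshold in either fit.

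The remaining genes are given by value. Srebf2 had 46.9, 41.5 and 47.6 CPM on chow against 25.6, 18.7 and 32.2 CPM on cholic acid, without overlap (log2 -0.83, adjusted p = 0.0650). Mylip had 8.06, 7.56 and 6.26 CPM against 10.3, 10.4 and 11.9 CPM (log2 0.58, adjusted p = 0.118). Both groups were apart in each of these genes, although neither passed the test. The log2 fold change was between -0.56 and -1.86 for Acat2, Hmgcs1, Mvk, Pmvk, Lss, Sc5d, Dhcr7, Stard4 and Tmem97, -2.05 for Fdps, -1.89 for Nsdhl, -2.21 for Cyp51 and -2.95 for Mvd. It was -0.39 for Scap, 0.11 for Ggps1, 0.14 for Lbr, 0.36 for Npc1 and 0.98 for Insig2. Of the sterol transport, storage and LXR list 2 of 17 tested rose. They were Abcg5 (log2 1.86, adjusted p = 0.00808) and Abcg8 (1.82, adjusted p = 0.00945), which together export sterols into bile. Among the genes of acetyl-CoA supply, Acat1 fell by 1.46 on the log2 scale. None of the 13 SREBP1 fatty acid genes, the 17 of the sterol sensing machinery or the 13 of the isoprenoid branch was called by edgeR. Of the other cell types 1 of 6 Kupffer markers (Csf1r) and 1 of 6 stellate markers (Reln) rose, and no hepatocyte marker was called.

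**Figure D3:**
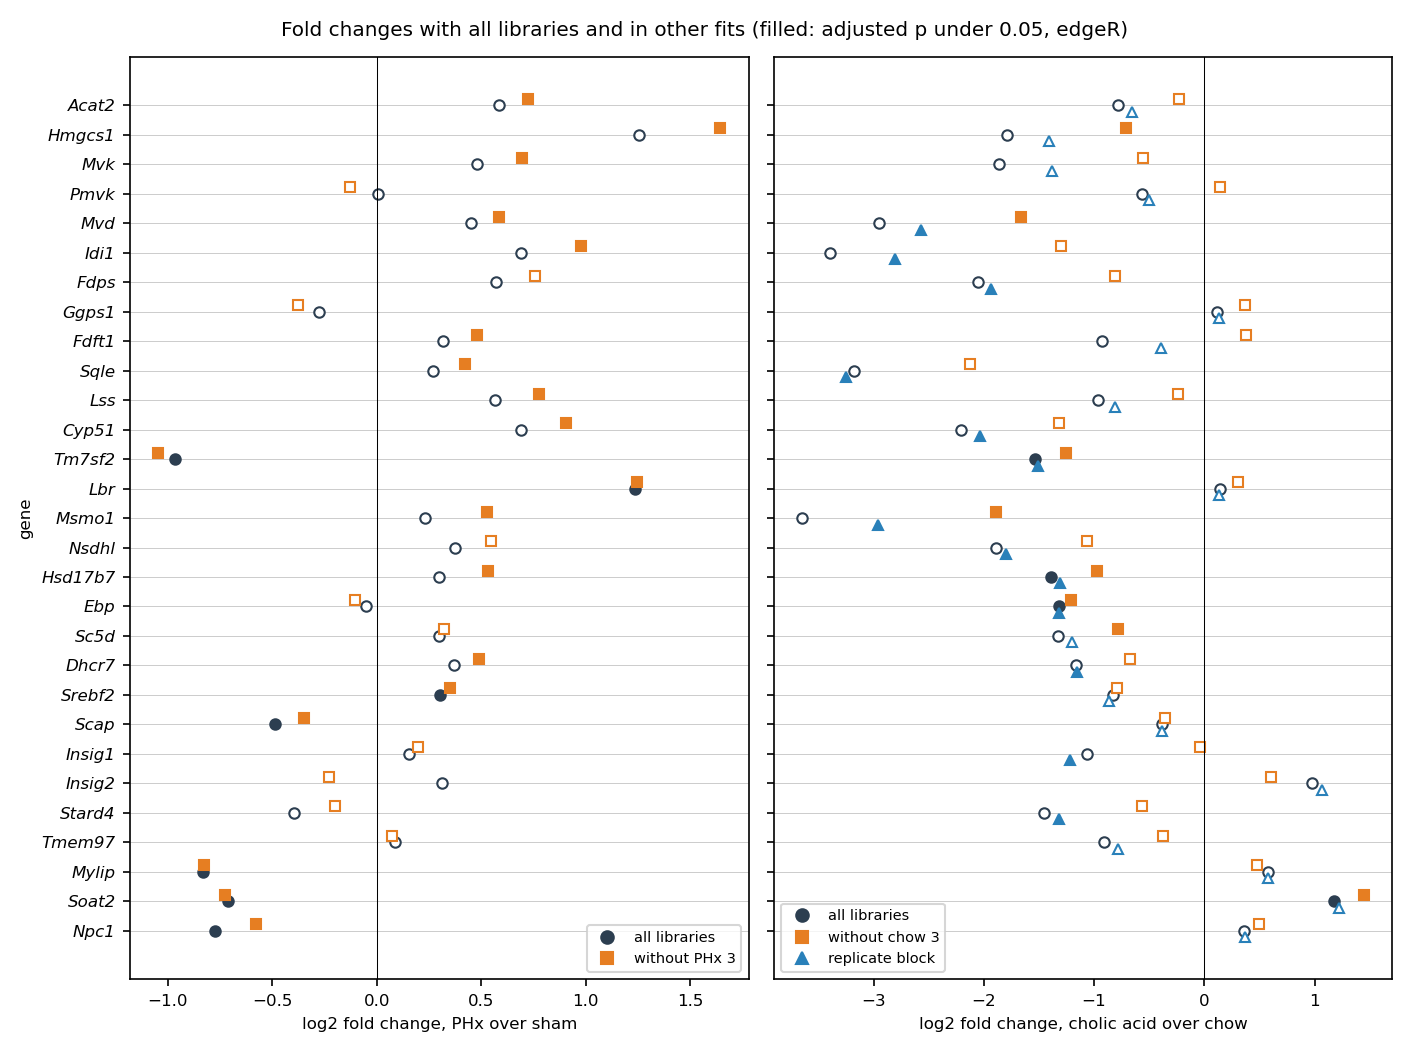
Log2 fold change of each gene (rows) after partial hepatectomy (left) and on the cholic acid diet (right) with all libraries (circles), without 1 library that stood apart (squares) and with the replicate number as a block (triangles, right only); filled symbols mark an edgeR adjusted p under 0.05. Without PHx 3 most enzymes move to the right and 14 genes pass as risen, and on the right the squares lie closer to 0 than the circles for most enzymes.

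At 48 h after partial hepatectomy the pathway moved little as a whole. Of the 29 genes 2 rose and 5 fell, where 30.7% of the 13753 genes tested were called, with 16.4% risen and 14.3% fallen. An unadjusted p under 0.05 was reached by 13 of the 29, and by 42.3% of all genes. The median log2 fold change was 0.30 over the 29 genes and 0.01 over all genes. For 3 genes all PHx libraries lay above all sham libraries and for 5 below, as for 24.4% and 22.6% of all genes.

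The 2 C14 sterol reductases went in opposite directions. Lbr had 11.9, 14.5 and 14.3 CPM in sham and 29, 35.4 and 31.2 CPM after PHx, and rose by 1.23 on the log2 scale (SE 0.12, adjusted p = 0.000227, edgeR). Tm7sf2 had 218, 204 and 206 CPM against 120, 83.8 and 118 CPM, and fell by 0.97 (SE 0.14, adjusted p = 0.00154). Lbr also encodes a protein of the inner nuclear membrane, and all 10 proliferation genes rose in these livers, led by Ccnb1 (log2 6.01). The part of dividing cells in the Lbr value was not tested.

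Of the 5 genes of storage, transport and receptor turnover 3 fell. Mylip had 13.2, 10.2 and 10.1 CPM in sham and 6.70, 5.93 and 6.19 CPM after PHx, and fell by 0.83 (SE 0.14, adjusted p = 0.00392). Soat2 had 27.5, 29.5 and 30.4 CPM against 19.7, 15.6 and 18.1 CPM, and fell by 0.71 (SE 0.11, adjusted p = 0.00226). Npc1 had 155, 189 and 173 CPM against 119, 112 and 71.0 CPM, and fell by 0.77 (SE 0.18, adjusted p = 0.0155). None of these overlapped between groups. Stard4 (log2 -0.40, adjusted p = 0.166) and Tmem97 (log2 0.09, adjusted p = 0.403) did not pass. In the control of the pathway, Scap had 213, 214 and 206 CPM against 177, 155 and 119 CPM and fell by 0.49 (SE 0.14, adjusted p = 0.0278), while Srebf2 had 56.8, 60.4 and 59.5 CPM against 78.9, 71.5 and 67.4 CPM and rose by 0.30 (SE 0.09, adjusted p = 0.0303). Leaving out 1 library at a time, Lbr, Tm7sf2, Mylip and Soat2 passed in all 6 fits, whereas Npc1 did not pass in 2, Scap in 4 and Srebf2 in 5.

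PHx 3 stood apart from the other PHx libraries and was the lowest of the 3 for 18 of the 29 genes. Hmgcs1 had 246, 145 and 137 CPM in sham and 609, 494 and 157 CPM after PHx (log2 1.26, SE 0.45, adjusted p = 0.0683). Cyp51 had 228, 169 and 168 CPM in sham and 408, 300 and 203 CPM after PHx (log2 0.69, adjusted p = 0.0614). Msmo1 had 371, 308 and 311 CPM against 449, 505 and 209 CPM (log2 0.23, adjusted p = 0.572). In these 3 genes PHx 1 and 2 were above every sham library and PHx 3 was not. The clock genes again set the same library apart, with Dbp at 88.0, 70.8 and 4.65 CPM and Arntl at 0.933, 0.914 and 19.7 CPM in PHx 1, 2 and 3, against 106 to 135 and 0.598 to 1.34 CPM in sham. The part of sampling time was not tested. Without PHx 3, 14 genes rose and 5 fell, where 15.7% of all genes rose and 14.5% fell. The 14 were Acat2, Hmgcs1, Mvk, Mvd, Idi1, Fdft1, Sqle, Lss, Cyp51, Lbr, Msmo1, Hsd17b7, Dhcr7 and Srebf2, and Hmgcs1 rose most (log2 1.65, SE 0.24, adjusted p = 0.00178). The 5 that fell were the same as with all libraries. With all libraries the genes not called ranged from -0.40 for Stard4 to 1.26 for Hmgcs1.

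Several neighbouring gene groups were lower after PHx, where 14.3% of all genes fell. Of the SREBP1 fatty acid genes 8 of 13 fell, led by Thrsp (-2.21), Elovl6 (-1.89) and Acacb (-1.89), and 0 rose. Among the genes of acetyl-CoA supply, Acss2 (-0.80) and Acly (-0.73) fell. Of the sterol transport, storage and LXR list 8 of 17 tested fell, led by Cyp46a1 (-3.32) and Osbpl3 (-1.12), and 0 rose. In the isoprenoid branch 3 of 13 rose (Fntb 0.75, Dhdds 0.38 and Zmpste24 0.24), against 16.4% of all genes. Of the hepatocyte markers 4 of 8 fell (127800 to 132800 CPM in sham and 96720 to 108700 CPM after PHx), and their part was not tested.

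**Figure D4:**
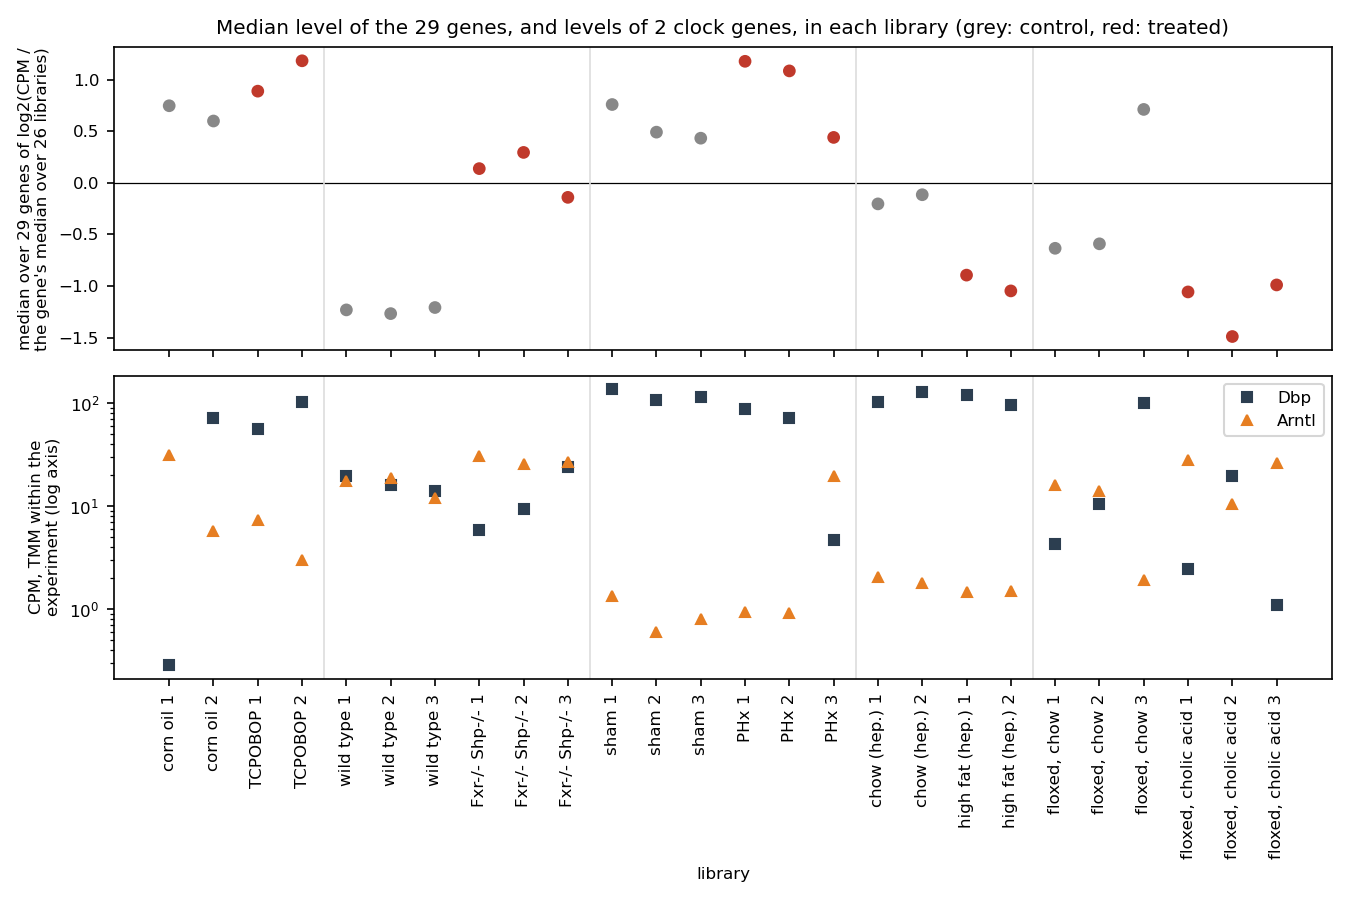
Above, the median over the 29 genes of log2(CPM divided by the gene's median over the 26 libraries) in each library, with controls in grey and treated libraries in red. Below, the CPM of the clock genes Dbp (squares) and Arntl (triangles) on a log axis. The wild-type libraries sit at -1.23, -1.27 and -1.21, floxed chow 3 at 0.71 against -0.64 and -0.59 for chow 1 and 2, and PHx 3 at 0.44 against 1.18 and 1.08 for PHx 1 and 2.

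After TCPOBOP no gene of the liver passed the test. Of the 29 genes 0 were called by edgeR, as were 0% of the 12785 genes tested. At an unadjusted p under 0.05 there were 12 of the 29 genes, all higher, against 5.87% of all genes. Both TCPOBOP libraries lay above both corn oil libraries for 16 of the 29 genes and below for 1, as for 16.8% and 18.7% of all genes. The median log2 fold change was 0.32 over the 29 genes and -0.02 over all genes.

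Sqle had 121 and 111 CPM with corn oil and 234 and 250 CPM with TCPOBOP (log2 1.07, SE 0.14, adjusted p = 0.489, edgeR). Msmo1 had 274 and 245 CPM against 491 and 671 CPM (log2 1.16, SE 0.22, adjusted p = 0.679). Idi1 had 80.5 and 102 CPM against 157 and 239 CPM (log2 1.12, SE 0.26, adjusted p = 0.812). Hsd17b7 had 95 and 105 CPM against 187 and 202 CPM (log2 0.96, SE 0.14, adjusted p = 0.577). In these 4 genes, named after their values were seen, the groups did not overlap. DESeq2's Wald test called 6 of the 29 genes higher (Mvk, Idi1, Sqle, Cyp51, Msmo1 and Hsd17b7), and 0.597% of all genes to which it gave an adjusted p. Without the library labelled corn oil 1, edgeR called 10 higher, where 5.71% of all genes were higher, and without corn oil 2 it called 5, where 1.51% were. Each of these fits leaves 1 corn oil library, which is assumed to vary as the TCPOBOP libraries do. The library labelled corn oil 1 also differed from corn oil 2 in Dbp (0.284 against 70.8 CPM) and Arntl (30.9 against 5.72 CPM). The proliferation genes Mki67 (26.9 against 1.72 CPM) and Top2a (19.4 against 1.09 CPM) differed as well. The part of these differences was not tested. Its values of Sqle, Msmo1 and Hsd17b7 were close to those of corn oil 2. Those of Dhcr7 (185 against 130 CPM), Tm7sf2 (186 against 143 CPM) and Mylip (3.64 against 7.33 CPM) lay further apart. Insig1 had 655 and 642 CPM with corn oil and 562 and 718 CPM with TCPOBOP, and Insig2 had 606 and 202 CPM against 598 and 289 CPM, so these 2 overlapped between groups.

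The opposite directions in different experiments were tested as differences between effects, without a replicate block. Experiments with no libraries in common were used, and the experiment, its strain, age, feeding and tissue cannot be told apart from the treatment. The effect of the knockout was higher than that of the high fat diet for 23 of the 29 genes and lower for 0, where 16.1% of the 14280 genes tested differed, 7.98% higher and 8.11% lower. It was largest for Sqle, with 4.88 in the knockout and -4.20 on the high fat diet (difference 9.10, SE 0.57, adjusted p = 4.11e-06, edgeR). Idi1 followed with 4.32 and -2.83 (difference 7.17, SE 0.42, adjusted p = 3.36e-06), and then Fdps with 3.99 and -2.66 (difference 6.65, SE 0.27, adjusted p = 3.26e-07). The knockout effect was higher than that of cholic acid for 23 genes and lower for 1, where 13.9% of 13935 genes differed, 7.18% higher and 6.74% lower. Sqle had 4.88 and -3.17 (difference 8.07, SE 0.99, adjusted p = 0.000328), Idi1 4.32 and -3.39 (difference 7.73, SE 1.39, adjusted p = 0.00333) and Msmo1 3.49 and -3.65 (difference 7.15, SE 1.03, adjusted p = 0.000884). The gene with a lower knockout effect was Soat2, with -0.19 and 1.18 (difference -1.37, adjusted p = 0.0111). With the block in both experiments, although no pairing of the knockout numbers is given in the labels, 21 were higher and 1 lower (5.69% and 5.33% of all genes). Sqle then differed by 8.09 (SE 0.35, adjusted p = 9.31e-06). Both of these contrasts use the same wild-type and knockout libraries, so they are not independent.

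The hepatectomy effect was higher than that of cholic acid for 12 genes and lower for 3, where 13% of 13985 genes differed, 8.01% higher and 5.01% lower. Idi1 differed most, with 0.69 and -3.39 (difference 4.09, SE 1.22, adjusted p = 0.0448), followed by Msmo1 with 0.23 and -3.65 (difference 3.89, SE 0.98, adjusted p = 0.0215) and Sqle with 0.27 and -3.17 (difference 3.45, SE 0.88, adjusted p = 0.0228). None of these 3 passed in every fit that leaves out 1 library: Idi1 did not pass in 9 of 12, Msmo1 in 5 and Sqle in 3. The 3 lower genes were Soat2 (difference -1.89), Mylip (-1.40) and Npc1 (-1.13), which had fallen after PHx and had positive values on cholic acid. Of these, Soat2 and Mylip passed in all 12 fits. Of the 12 higher genes, Ebp had -0.05 after PHx and -1.31 on cholic acid (difference 1.27, SE 0.20, adjusted p = 0.00173). With the block in both experiments, although no pairing of the hepatectomy numbers is given in the labels, 17 were higher and 3 lower (6.52% and 4.18% of all genes). The difference was then 3.46 for Idi1 (SE 0.45, adjusted p = 0.00407), 3.11 for Msmo1 (SE 0.60, adjusted p = 0.0176) and 3.51 for Sqle (SE 0.24, adjusted p = 0.000497).

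**Figure D5:**
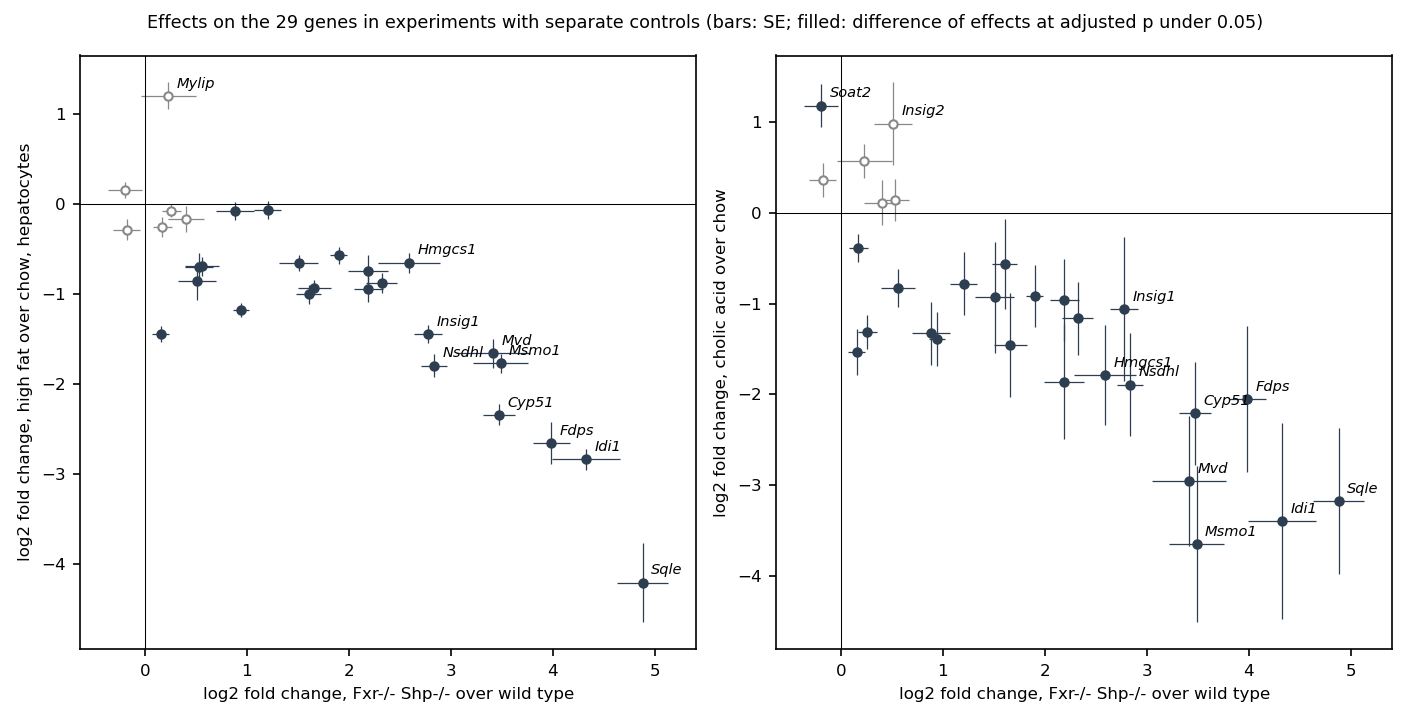
Log2 fold change in Fxr-/- Shp-/- over wild type (x axis) against that on the high fat diet in hepatocytes (left, y axis) and on cholic acid (right, y axis) for each of the 29 genes, with bars of 1 SE; filled points mark genes whose 2 effects differed at an edgeR adjusted p under 0.05. Sqle lies farthest to the lower right on the left, at 4.88 and -4.20, and Soat2 is the single filled point above 0 on the right.

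Some genes are uncertain as single genes. In the GENCODE M21 annotation of GRCm38, which may differ from the one used for counting, 9 of the 29 have an exon overlapped by a gene on the opposite strand, among them Fdft1 (by Ctsb) and Cyp51 (by Akap9), and 3 by a gene on the same strand (Fdps, Tm7sf2 and Lbr). Whether the counting used strand is not given in the sources used here. A stretch of at least 100 bases that is at least 95% identical to another annotated gene was found in 17 of the 29. The longest were 1477 bases shared by Acat2 and Acat3, 1249 bases shared by Fdft1 and Gm6781 and 1066 bases shared by Fdps and Gm5873. Reads from such stretches may have been set aside or assigned to the other gene, so the levels of these genes are uncertain. Sqle, Mvd, Nsdhl, Mvk, Pmvk, Hsd17b7, Ebp, Sc5d, Srebf2, Insig2, Stard4 and Mylip had neither an overlap nor such a stretch.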

How the data were processed

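RNA of 26 mouse liver samples in 10 groups was sequenced. The authors deposited raw read counts per gene, not normalized, as 1 table of 47643 gene rows and 5 summary rows, and 0 of its columns were unused. The submitters' processing notes name bcl2fastq 2.17.1.14, Trimmomatic, STAR 2.4.2a, Picard 1.119, HTSeq and the GRCm38 (mm10) build. The labels' protocols describe a stranded library kit, but strand use in the counting is not given in the sources used here. The summary rows (23.0% to 48.6% of a library's reads) were left out of library sizes and tests. Of the identifiers, 47224 matched a symbol.

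Each comparison was fitted on its own libraries in edgeR 4.0.16 (R 4.3.3) by the quasi-likelihood F test, after filterByExpr (minimum count 10, minimum total 15) and TMM scaling, with Benjamini-Hochberg adjustment over all genes and a threshold of 0.05. The SE was derived from the F statistic, as the size of the log2 fold change over the root of F. Differences between effects were interaction terms over both experiments. All 29 genes passed the filter in each of the 5 comparisons. The code was tested on simulated data. The alternatives were DESeq2 1.42.0, plain CPM, no filter on low counts, a single fit of all 26 libraries, a log2 minimum of 1, a replicate block and leaving out each library. Replicates differed beyond sampling noise (chi-square per degree of freedom 7.48 to 188.5), so none were merged. Chow and cholic acid libraries with the same number deviated weakly together (correlations all over 0.1). Those of the TCPOBOP experiment did so too (0.104), and the high fat diet had 0.094. For cholic acid the fit with the replicate block is given beside the unblocked one wherever it changes a call. The comparison itself and the differences between effects were fitted without the block. The labels do not say what the number stands for.

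The genes and lists were chosen with earlier results of these data known. Per-library levels with full statistics were given for up to 8 called genes with the largest change in each comparison, up to 3 per difference of effects and up to 3 per other list. Other values were given to account for every gene. Some genes of the acetyl-CoA supply list are not reported here, so that list is given without counts.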

Additional observations from a re-analysis of the deposited data

Results flagged for a closer look

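Effects that differed between experiments, by a test of the difference itself in edgeR, were found in 3 contrasts. Between the knockout and the high fat diet, 23 genes differed, with the largest differences on the log2 scale for Sqle (9.095), Idi1 (7.175) and Fdps (6.651). Between the knockout and cholic acid, 24 genes differed, led by Sqle (8.066), Idi1 (7.729) and Msmo1 (7.151). Between hepatectomy and cholic acid, 15 genes differed, led by Idi1 (4.092), Msmo1 (3.891) and Sqle (3.452). Each contrast also sets experiments against each other, which cannot be told apart from the treatments.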

How the results depend on the processing

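The median log2 fold change of the 29 genes kept its sign under the alternatives run. Leaving out 1 library at a time it was 1.52 to 1.72 in the knockout, 0.24 to 0.44 with TCPOBOP, -1.39 to -0.56 on cholic acid, 0.20 to 0.42 after hepatectomy and -0.88 to -0.77 on the high fat diet. In those fits the knockout raised 19 to 23 genes and lowered 0 to 2, and the high fat diet lowered 18 to 20 and raised 1. TCPOBOP raised 0 to 10, hepatectomy raised 1 to 14 and lowered 3 to 6, and cholic acid lowered 1 to 7 and raised 0 to 1. The knockout effect was higher than that of cholic acid for 20 to 23 genes and lower for 1, and higher than that of the high fat diet for 21 to 23 and lower for 0 to 2. The hepatectomy effect was higher than that of cholic acid for 6 to 17 genes and lower for 2 to 3. DESeq2 called 6 genes raised with TCPOBOP, 4 raised after hepatectomy and 12 lowered on cholic acid. With no filter on low counts 5 were raised after hepatectomy, 13 lowered on cholic acid, and 1 had a lower knockout than high fat effect. A single fit of all 26 libraries called 1 raised after hepatectomy, 9 lowered on the high fat diet and 18 lowered on cholic acid. A log2 minimum of 1 left 1 raised and 0 lowered after hepatectomy and 11 lowered on the high fat diet. The cause of these shifts was not tested. The share of all genes called is given above for some of the fits in this section and was not counted for the others. Where it was not counted, a shift in the count of the 29 genes cannot be told apart from a shift over all genes. Plain CPM in place of TMM moved the median of the 29 genes by 0.22 on cholic acid, 0.21 in the knockout, 0.18 after hepatectomy, -0.09 with TCPOBOP and 0.13 on the high fat diet.

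With the replicate block, 13 genes were lowered and 0 raised on cholic acid, where 2% of all genes were lowered and 1.81% raised. After hepatectomy 9 were raised with the block, and the share of all genes was not counted there. After hepatectomy the same-numbered libraries had correlations of -0.08, 0.07 and -0.00136, and in the knockout -0.18, -0.04 and -0.02. Such correlations cannot show whether same-numbered libraries were paired. With TCPOBOP and on the high fat diet the correlations were 0.104 and 0.094.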
